A study of Saccharomyces cerevisiae with 8 samples.

Results

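The transcripts described here are those of 10 genes of inositol and phospholipid synthesis in *Saccharomyces cerevisiae*. They were chosen by function, as the pathway that holds the lithium-inhibited inositol monophosphatase together with its transporters and regulators, and they make up 10 of the 6697 genes with counts over coding sequence (CDS). All 10 passed the filter on low counts, as did 6498 genes in all.

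The libraries come from haploid laboratory strain BY4741. Along the isobole, 7 cultures held LiCl and cycloheximide in ratios set so that growth was inhibited by 50%, and the control culture had YPD, a rich medium, with no drug. Point 1 was cycloheximide only, points 2 to 6 were mixtures with the share of LiCl growing from point to point, and point 7 was LiCl only. Each of the 8 conditions was a single culture of 200 µl and 1 library, so a difference between any pair of libraries has no replicate check, and n is 1 for every level below. Cells were diluted 130-fold into the drugs, the control was diluted 100-fold further, and all grew for about 17 h to an OD600 of about 0.5. The control thus differs from the others in drug, growth rate and inoculum together, which cannot be told apart.

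Inositol is made from glucose 6-phosphate in a pair of steps, an isomerisation to inositol phosphate by Ino1 and a dephosphorylation by inositol monophosphatase, the enzyme that lithium inhibits. It is joined to CDP-diacylglycerol to give phosphatidylinositol, and the same lipid precursor gives phosphatidylserine, from which phosphatidylethanolamine and then phosphatidylcholine are made. In yeast many genes of this network share an upstream element, UASINO, that is bound by the activator pair Ino2 and Ino4. The repressor Opi1 acts through Ino2 and leaves the endoplasmic reticulum membrane when inositol is plentiful and phosphatidic acid is used up.

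The upstream elements are shown because they divide the genes into those with and those without a match to the letters that UASINO shares with other sites of its family. In build R64, the 500 bases upstream of each start codon were searched on both strands for the core CATGTG, which reads CACATG when it lies on the opposite strand, and for the longer CATGTGAA, which contains the core. Of 5987 protein-coding genes, 13.1% held the core and 1.44% the longer form. Among the 10 genes the core was found upstream of INO1, INO2, INO4, CHO1, CHO2, OPI3 and ITR1, and the longer form upstream of 6 of these 7, OPI3 being the exception. No match lay upstream of INM1, OPI1 or ITR2, which says only that these letters are not in that window. The windows below are written 5′ to 3′ along the gene's own strand, with the core in capitals.
INO1, chrX:136163-136184, minus strand: aaatgcggCATGTGaaaagtat
INO1, chrX:136098-136119, minus strand: atttaattCACATGgagcagag
ITR1, chrIV:1445736-1445757, minus strand: gttctcttCACATGcgttaggt
ITR1, chrIV:1445675-1445696, minus strand: ccccaccgCATGTGaaaaaagc
CHO1, chrV:208620-208641, minus strand: tgagctttCACATGgacccatc
CHO2, chrVII:802096-802117, plus strand: ctccgacaCATGTGaatttata
CHO2, chrVII:802165-802186, plus strand: tcccttctCATGTGaagagttc
OPI3, chrX:573134-573155, minus strand: tgagagtgCATGTGgaaagttg
OPI3, chrX:573070-573091, minus strand: caaacccaCACATGcatcgttg
INO2, chrIV:699599-699620, minus strand: acaacacaCATGTGaatttttt
INO4, chrXV:111994-112015, minus strand: aaaatattCACATGtttttctc
The OPI3 cores are followed by G and by T on their own strands and so lack the longer form. In INO2 and in the more distant CHO2 site the core reads on both strands with an overlap of 4 bases, so that the overlapping match is not printed separately. ITR1 has a further core outside the longer form, and it is shown last.
ITR1, chrIV:1445846-1445867, minus strand: gatcgtctCACATGatgagcta

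**Figure D1:**
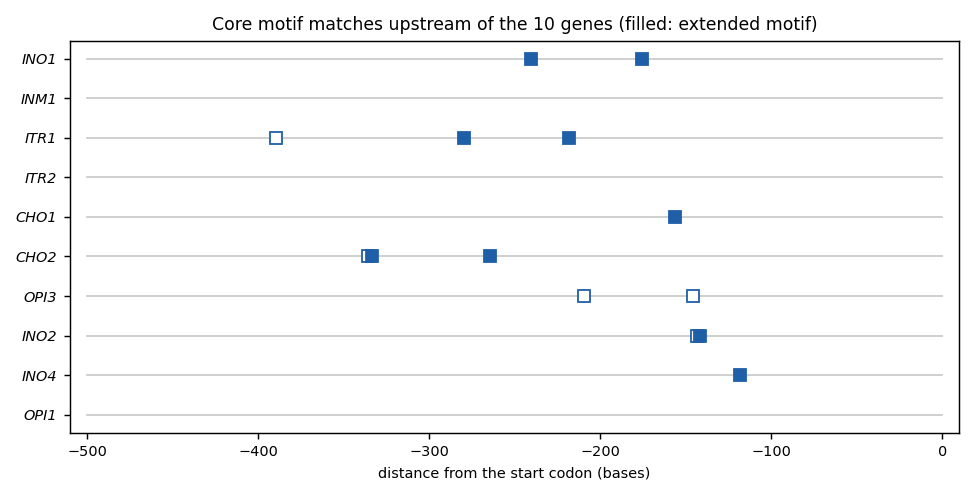
Position of the matches in the 500 bases upstream of the start codon of each gene (x axis, distance in bases), on either strand. Filled squares are cores that belong to the longer form and open squares are cores alone. At least 1 core lies upstream of 7 genes, and the lines of INM1, ITR2 and OPI1 are empty.

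The libraries held between 13693401 and 28042336 CDS counts. The ends of the isobole were the deepest, with 23522386 in cycloheximide only and 28042336 in LiCl only. The mixtures held 13693401 to 17673770. Levels are given in CPM, that is, reads of a gene per 1000000 CDS reads in its library, with library sizes adjusted by TMM (trimmed mean of M values). CPM is a share of a library, and less RNA of 1 gene cannot be told apart from more RNA of the rest. The TMM factor of the library without drug was 0.8548, the lowest of the 8. Scaling by total counts instead moves the median log2 difference of all genes by 0.32 for LiCl only against no drug and by 0.30 for cycloheximide only against no drug, but by 0.02 between the ends of the isobole. The strain's deleted genes URA3, LEU2 and MET17 had 3 counts in all, and HIS3, which is partly deleted, had 21.5 to 51.2 CPM. No 50-base stretch of the CDS of the 10 genes occurs elsewhere in the R64 genome, and none of them overlaps another counted CDS. Counting used no strand setting, so antisense transcripts are included.

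**Figure D2:**
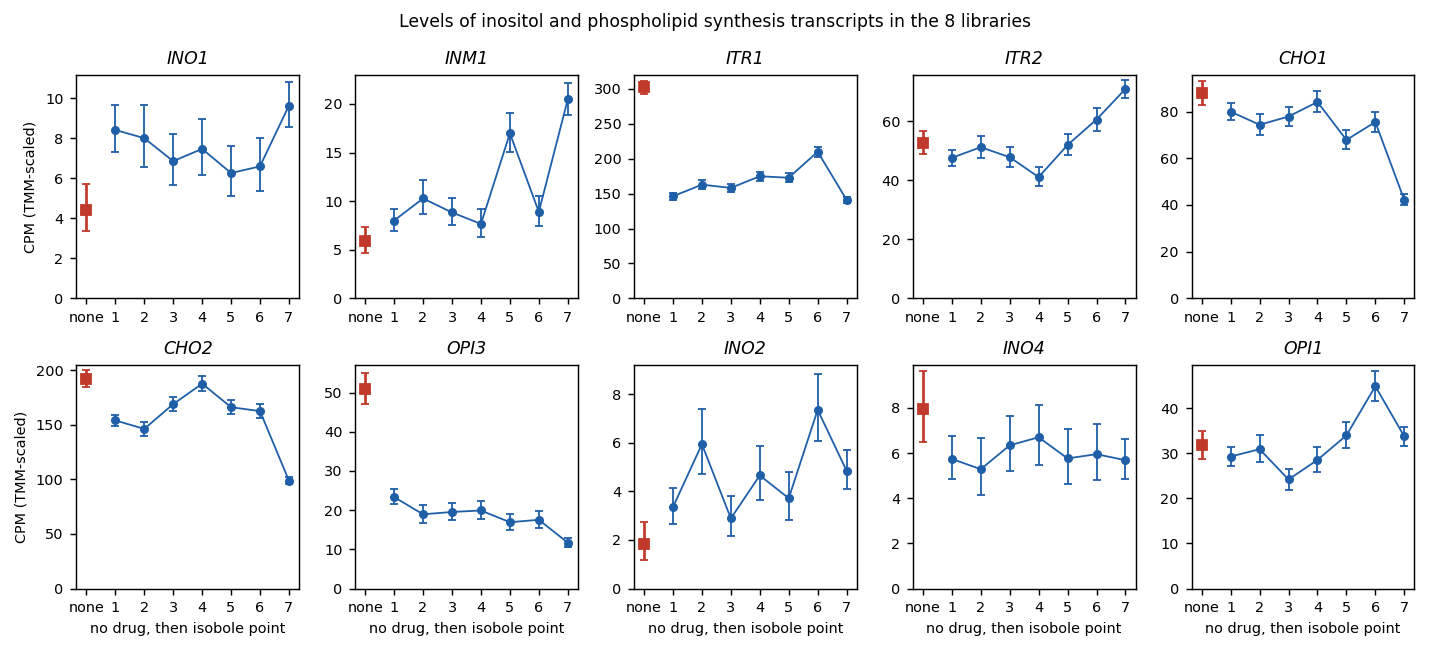
Level of each transcript in CPM (y axis, from 0) in the library without drug (red square) and at isobole points 1, cycloheximide only, to 7, LiCl only (blue circles joined by a line). Bars are exact 95% Poisson intervals and cover counting error only. ITR1 and OPI3 stand highest without drug, at 302 and 50.9 CPM, and INO1, INM1 and INO2 stand lowest there.

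In LiCl only, the transcripts CHO1, CHO2, OPI3 and ITR1 were lower, and INO1, INM1 and INO2 higher, than without drug. In that comparison 3 of the 10 genes were at least 2-fold higher (INO1, INM1 and INO2), against 11.8% of all genes tested, and 3 were at least 2-fold lower (CHO1, OPI3 and ITR1), against 6.43%. The median log2 difference was -0.20 over the 10 genes and 0.03 over all 6498. With total-count scaling the 3 higher genes were the same, against 19.8% of all genes. Of the lower ones only OPI3 stayed past 2-fold, against 3.29%, and the median over the 10 genes turned to 0.12, against 0.34 over all. Scaling by size factors (RLE) gave the same 3 higher genes, against 711 of the 6498. It put CHO1, CHO2, OPI3 and ITR1 at least 2-fold lower, against 479.

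Cycloheximide only was compared with no drug for what another way of slowing growth does. No gene of the 10 was at least 2-fold higher, against 5.86% of all genes, and OPI3 and ITR1 were at least 2-fold lower, against 2.06%. With total-count scaling, INO1 and INO2 were at least 2-fold higher, against 11.4% of all genes, and none was 2-fold lower, against 0.769%. Both comparisons share the library without drug, so their values are set side by side below and not counted as independent.

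At the ends of the isobole, where growth inhibition is matched by design, INM1 was the 1 gene of the 10 that was at least 2-fold higher in LiCl only, against 5.99% of all genes. None was 2-fold lower, against 7.17%, with OPI3 just inside that limit at a log2 difference of -0.99 (95% counting interval -1.19 to -0.80) and CHO1 at -0.92 (-1.03 to -0.82). With RLE size factors OPI3 passed that limit, against 482 of all 6498 genes.

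**Figure D3:**
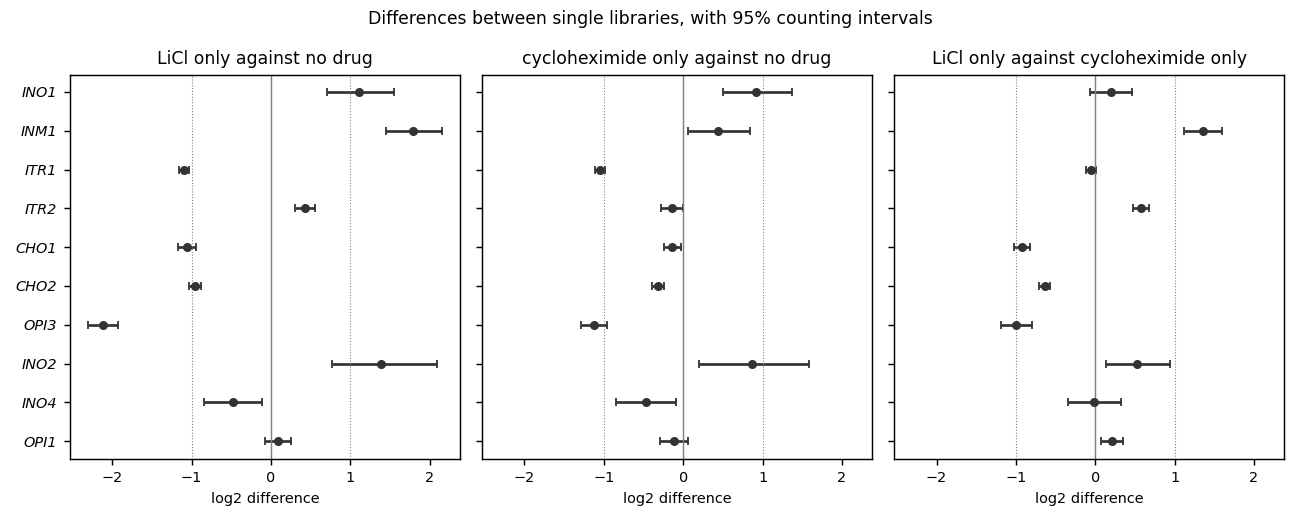
Log2 difference in CPM of each gene (x axis) between single libraries in the comparisons named above the panels, with 95% counting intervals as bars and dotted lines at a 2-fold difference. OPI3 lies at -2.12 in LiCl only and -1.12 in cycloheximide only against no drug, and INM1 at 1.79 and 0.44.

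Of the inositol-producing enzymes, INO1 (YJL153C, chromosome X, 134332 to 135933) encodes inositol 3-phosphate synthase. It had 4.44 CPM without drug, 8.41 in cycloheximide only, 8.0, 6.85, 7.46, 6.26 and 6.59 at points 2 to 6, and 9.63 in LiCl only. The library without drug was thus the lowest of the 8 and both single-drug libraries were above every mixture, though cycloheximide only and point 2 were within counting error of each other. INO1 was a rare transcript throughout, with 58 to 288 counts a library. Against no drug, the log2 difference was 1.11 (95% counting interval 0.71 to 1.55) in LiCl only and 0.92 (0.50 to 1.37) in cycloheximide only, and between these ends 0.19 (-0.07 to 0.46), within counting error.

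INM1 (YHR046C, chromosome VIII, 197398 to 198285) encodes the inositol monophosphatase that releases free inositol. It had 5.89 CPM without drug, 8.0 in cycloheximide only, 10.3, 8.83, 7.66, 17.0 and 8.89 at points 2 to 6, and 20.5 in LiCl only. Points 5 and 7 stood apart from the other 6 libraries, whose highest was 10.3 CPM, and point 6 between them did not. Of the neighbours on the chromosome, DDE1 (YHR045W) had 25.7, 23.0, 22.4 and 20.9 CPM at points 1 to 4. It had 27.0 at point 5 and 28.1 at point 6. AAP1 (YHR047C) had 116, 108, 106 and 98.2 CPM at points 1 to 4, then 85.6 and 94.8. Whether reads of INM1 depend on its neighbours was not tested. At point 7 DDE1 was at its highest, with 30.7 CPM against 26.3 without drug, and AAP1 had 97.3 against 131. For INM1, LiCl only was 3.46-fold above no drug (log2 difference 1.79, 1.45 to 2.16) and 2.30-fold above point 6.

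The second inositol monophosphatase, INM2 (YDR287W), is not among the 10 genes and went the other way. Its level was 23.9 CPM without drug and 21.3 at the cycloheximide end, ranged from 16.8 to 20.9 in the mixtures, and was 12.2 at the LiCl end. Per kilobase of CDS, the level of INM1 was 0.244 of that of INM2 without drug, 0.371 at point 1 and 1.66 at point 7, so that INM1 was the more abundant of the pair there alone among the 8 libraries. No 50-base stretch of INM2 occurs elsewhere in the genome either.

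ITR1 and ITR2 encode the inositol transporters of the plasma membrane, Itr1 being the major one. ITR1 (YDR497C, chromosome IV, 1443713 to 1445467) had 302 CPM without drug, 146 in cycloheximide only, 163, 158, 175, 173 and 210 at points 2 to 6, and 141 in LiCl only. All 7 libraries with drug were therefore below the one without, and the ends of the isobole were the lowest. Against no drug the log2 difference was -1.10 (-1.16 to -1.04) in LiCl only and -1.05 (-1.11 to -0.98) in cycloheximide only. The ends differed from each other by -0.05 (-0.12 to 0.01), within counting error.

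ITR2 (YOL103W, chromosome XV, 124001 to 125830) behaved differently. It had 52.7 CPM without drug, 47.6 in cycloheximide only, 51.2, 47.8, 41.1, 52.0 and 60.6 at points 2 to 6, and 71.0 in LiCl only. The libraries with most LiCl, points 6 and 7, were above the one without drug and the others at or below it. The log2 difference against no drug was 0.43 (0.30 to 0.56) in LiCl only, and -0.15 (-0.28 to -0.01) in cycloheximide only, where total-count scaling turns it to 0.15. Per kilobase the level of ITR1 was 5.98 times that of ITR2 without drug, 3.20 times at point 1 and 2.07 times at point 7.

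CHO1 (YER026C, chromosome V, 207644 to 208474) encodes phosphatidylserine synthase, which opens the route from CDP-diacylglycerol to phosphatidylcholine. It had 87.9 CPM without drug, 79.9 in cycloheximide only, 74.3, 77.9, 84.1, 67.8 and 75.5 at points 2 to 6, and 42.2 in LiCl only. The LiCl library stood alone below the other 7, which spanned 67.8 to 87.9 CPM. Its log2 difference was -1.06 (-1.18 to -0.94) against no drug and -0.84 (-0.96 to -0.73) against point 6, the nearest mixture.

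CHO2 (YGR157W, chromosome VII, 802440 to 805049) encodes the enzyme of the first methylation of phosphatidylethanolamine. It had 192 CPM without drug, 154 in cycloheximide only, 146, 169, 188, 166 and 163 at points 2 to 6, and 98.9 in LiCl only. Again LiCl only was the lowest library by a wide margin, with a log2 difference of -0.96 (-1.04 to -0.88) against no drug and -0.72 (-0.79 to -0.64) against point 6. CHO1 and CHO2 moved in parallel, with Pearson's r = 0.938 for log2 CPM over the 8 libraries. This r is a description, since within each library both genes share its depth and scaling.

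OPI3 (YJR073C, chromosome X, 572315 to 572935) encodes the methyltransferase that completes phosphatidylcholine. It had 50.9 CPM without drug, 23.3 in cycloheximide only, 18.9, 19.5, 19.9, 16.9 and 17.5 at points 2 to 6, and 11.7 in LiCl only. Every library with drug lay far below the one without, and LiCl only was the lowest. In LiCl only OPI3 was 4.34-fold lower than without drug (log2 difference -2.12, -2.31 to -1.93, and -1.80 with total-count scaling). In cycloheximide only it was 2.18-fold lower (-1.12, -1.29 to -0.96). Per kilobase, the levels of CHO2 and OPI3 were close without drug, with a ratio of 0.899, whereas CHO2 was 1.57 to 2.34 times OPI3 along the isobole.

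**Figure D4:**
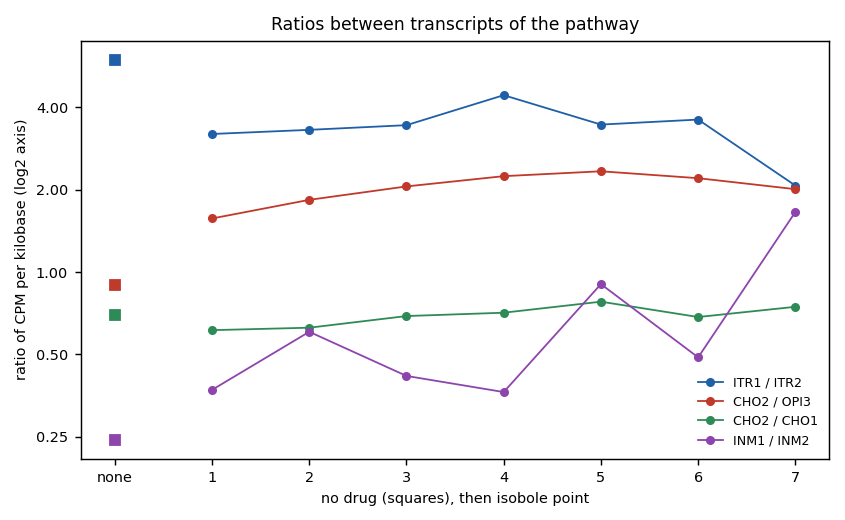
Ratio of CPM per kilobase of CDS between named pairs of transcripts (y axis, log2 scale) without drug (squares) and at isobole points 1 to 7 (circles). ITR1 over ITR2 goes from 5.98 without drug to 2.07 in LiCl only, and INM1 over INM2 from 0.244 to 1.66, whereas CHO2 over CHO1 stays between 0.614 and 0.780.

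Of the regulators, INO2 (YDR123C, chromosome IV, 698554 to 699468) encodes the subunit of the activator that carries the activation domains. It had 1.84 CPM without drug, 3.36 in cycloheximide only, 5.94, 2.89, 4.66, 3.72 and 7.36 at points 2 to 6, and 4.85 in LiCl only. The library without drug was the lowest and the order along the isobole was irregular. INO2 was at the low end of what these libraries resolve, with 24 counts without drug and 51 to 145 elsewhere. The log2 difference against no drug was 1.39 (0.77 to 2.09) in LiCl only and 0.86 (0.20 to 1.59) in cycloheximide only.

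INO4 (YOL108C, chromosome XV, 111431 to 111886) encodes the partner of Ino2. It varied least of the 10, from 5.28 to 6.70 CPM along the isobole, with 5.74 in cycloheximide only and 5.68 in LiCl only, against 7.95 without drug. The ends of the isobole differed by -0.01 (-0.34 to 0.32) on the log2 scale.

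OPI1 (YHL020C, chromosome VIII, 66242 to 67456) encodes the repressor. It had 31.7 CPM without drug, 29.3 in cycloheximide only, 30.9, 24.2, 28.5, 34.0 and 44.9 at points 2 to 6, and 33.7 in LiCl only. The highest level was at point 6 and the lowest at point 3. Neither end of the isobole differed from no drug beyond counting error, with log2 differences of 0.09 (-0.08 to 0.26) and -0.12 (-0.29 to 0.06), and total-count scaling moves them to 0.41 and 0.18.

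Levels can be compared between genes per kilobase of CDS. Without drug the order was ITR1 (172 CPM per kilobase), CHO1 (106), OPI3 (81.9), CHO2 (73.6), ITR2 (28.8), OPI1 (26.1), INO4 (17.4), INM1 (6.63), INO1 (2.77) and INO2 (2.01). In LiCl only ITR1 and CHO1 still led, with 80.4 and 50.7, OPI3 was in place 7 with 18.8, and ITR2 and INM1 had 38.8 and 23.0. ITR2 and OPI1, or INO1 and INO2, were close neighbours in this order, which has no replicate behind it.

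The position of the library without drug was next counted over all genes. It was the highest of the 8 for 5 of the 10 genes (INO4, CHO1, CHO2, OPI3 and ITR1), against 24.6% of genes tested, and the lowest for 3 (INO1, INM1 and INO2), against 29.4%. With total-count scaling it was the highest for OPI3 and ITR1 alone, against 9.11% of genes, and the lowest for the same 3, against 47.8%, so that 3 of 10 lay at the background share or below it under either scaling. LiCl only was the highest library for INO1, INM1 and ITR2, against 24.4% of genes, and the lowest for CHO1, CHO2, OPI3 and ITR1, against 22.3%. These LiCl positions were the same under each scaling tried, where total-count scaling gave shares of 30.5% and 14.1% over all genes.

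The gradient itself was tested with edgeR's quasi-likelihood test of a linear slope over the 7 isobole libraries, with Benjamini-Hochberg adjustment over all 6498 genes. OPI3 fell, by 0.12 per point on the log2 scale (SE 0.03, edgeR adjusted p = 0.0165). It was the only gene of the 10 to pass at an adjusted p under 0.05, where 15.6% of all genes fell and 15.6% rose. Without cycloheximide only, or without LiCl only, the slope of OPI3 was -0.12 and -0.07 and its edgeR adjusted p was 0.0688 and 0.126, so the call rests on both ends. No gene of the 10 rose in this fit. INM1 missed the threshold with a slope of 0.19 (SE 0.06, edgeR adjusted p = 0.0510) and passed in DESeq2 (adjusted p = 0.0206), where 15.7% of all genes rose, and in edgeR with total-count scaling and when point 4 or point 6 was left out. Without LiCl only its edgeR adjusted p was 0.420. At an unadjusted p under 0.05 there were 2 genes with a positive slope, INM1 and ITR2, and 2 with a negative one, CHO1 and OPI3. Over all genes, 22.8% rose and 21.9% fell at that threshold, so these counts are near the background.

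The slope of ITR2 was 0.08 (SE 0.03, edgeR adjusted p = 0.0617), that of OPI1 0.08 (SE 0.04, adjusted p = 0.121), that of INO2 0.09 (SE 0.07, adjusted p = 0.325) and that of CHO1 -0.10 (SE 0.04, adjusted p = 0.111). The ITR2 slope passed when point 4 was left out (edgeR adjusted p = 0.0228). Slopes near 0 were found for CHO2 (-0.05), ITR1 (0.03), INO1 (0.01) and INO4 (0.00), whose edgeR adjusted p ranged from 0.417 to 0.942. For these 4 genes the sign changed when single libraries were left out.

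**Figure D5:**
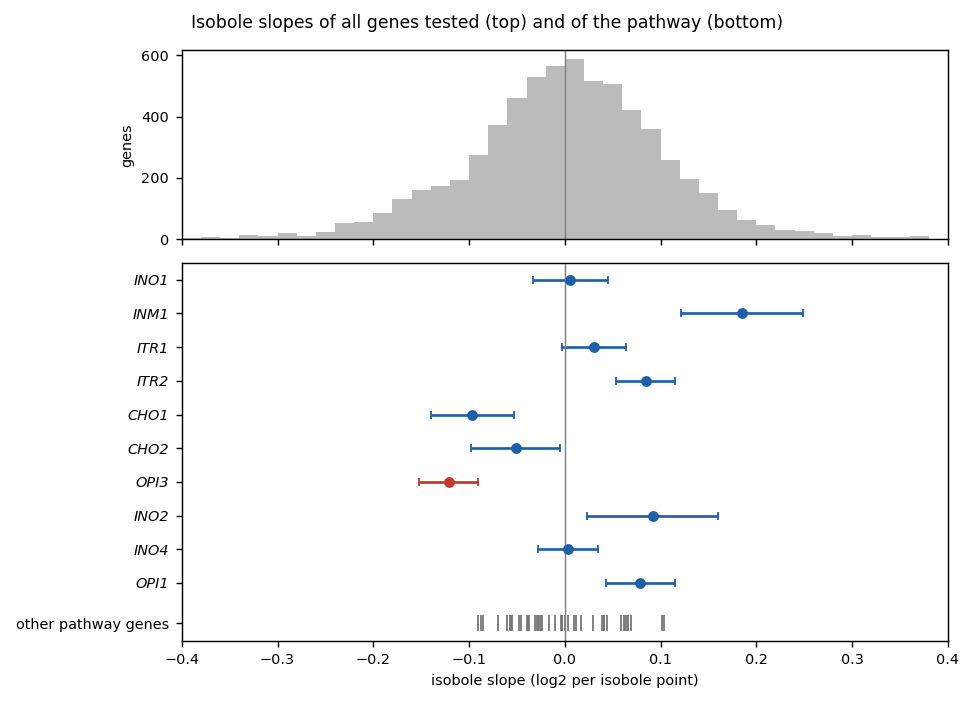
Isobole slope in log2 units per isobole point (x axis) for all genes tested (histogram, y axis number of genes; 16 genes lie beyond ±0.4), for the 10 genes (circles with SE bars) and for 42 other genes of the pathway (ticks). OPI3, in red, passed an adjusted p of 0.05 with a slope of -0.12, and INM1 has the steepest rise of the 10 at 0.19.

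Whether the mixtures departed from a straight line between the ends was tested by the quadratic term in edgeR, stated as the fitted middle of the isobole minus the chord between its ends. The ends were also the deepest libraries, so a bow cannot be told apart from a difference that goes with depth. CHO2 and CHO1 were bowed upward, by 0.54 (SE 0.15, edgeR adjusted p = 0.0939) and 0.43 (SE 0.17, adjusted p = 0.184), and INO1 and ITR2 downward, by -0.42 (SE 0.16, adjusted p = 0.183) and -0.35 (SE 0.12, adjusted p = 0.154). None of the 10 genes passed at an adjusted p under 0.05 in edgeR, where 1.23% of all genes did. These 4 were under an unadjusted p of 0.05, as were 21.2% of all genes, and DESeq2 called CHO2 (adjusted p = 0.0254) and 4.4% of all genes. Without LiCl only the fitted bow was 0.22 for CHO2 and 0.04 for CHO1.

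The wider pathway was followed in 42 further genes: 14 inositol and phosphoinositide enzymes, 13 of the phosphatidic acid and CDP-diacylglycerol route, 7 of choline and ethanolamine use, 3 of fatty acid synthesis and 5 regulators. Along the isobole, 3 of the 42 rose and 1 fell in edgeR at an adjusted p under 0.05, which is less than the 15.6% of all genes in each direction. CDS1, the CDP-diacylglycerol synthase, rose by 0.10 per point (SE 0.02, edgeR adjusted p = 0.0102). IRE1, the sensor of the unfolded protein response that is also needed for growth without inositol, rose by 0.10 (SE 0.02, adjusted p = 0.00459), and PAH1, the phosphatidate phosphatase, by 0.06 (SE 0.02, adjusted p = 0.0406). PIS1, the phosphatidylinositol synthase, fell by 0.09 (SE 0.03, adjusted p = 0.0279), from 123 CPM in cycloheximide only to 81.8 in LiCl only. The slope of INM2 was -0.09 (SE 0.04, adjusted p = 0.105).

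In LiCl only against no drug, 0 of the 42 were at least 2-fold higher and 2 were at least 2-fold lower, against 11.8% and 6.43% of all genes, and those named here were chosen after their values were seen. URA8, a CTP synthase, had 51.6 CPM against 119 without drug, and CKI1, the choline kinase, 13.3 against 30.5. With total-count scaling their log2 differences were -0.89 and -0.88. None of the 42 was then 2-fold lower, against 3.29% of all genes. GIT1, a glycerophosphoinositol transporter, and URA7 were at least 2-fold higher under that scaling, against 19.8%. GIT1 had only 37 counts without drug. With TMM its log2 difference was 0.77 (counting interval 0.25 to 1.34), and that interval holds values on both sides of the 2-fold limit. URA7, the other CTP synthase, was the 1 gene at least 2-fold higher in cycloheximide only, against 5.86% of all genes, with 222 CPM against 99.6 without drug, and had 198 in LiCl only. URA7 overlaps the small feature YBL039C-A, with which its reads are shared. The median log2 difference of the 42 was -0.13 in LiCl only and -0.10 in cycloheximide only, against 0.03 and 0.05 over all genes, and with total-count scaling it was 0.19 and 0.20, against 0.34 and 0.35.

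The genes with the core upstream did not move as one. In LiCl only against no drug their log2 differences were 1.11 for INO1, 1.39 for INO2, -0.48 for INO4, -1.06 for CHO1, -0.96 for CHO2, -2.12 for OPI3 and -1.10 for ITR1. The 3 genes without a core had 1.79 (INM1), 0.43 (ITR2) and 0.09 (OPI1). Thus 5 of the 7 with the core were below no drug and 2 were above, and all those without it were above or within counting error. The median over all genes was 0.03 with TMM and 0.34 with total-count scaling, so the side of no drug can depend on the scaling. The share of all genes on each side was not counted, and a link between the core and direction was not tested. Outside the 10, 77 tested genes had the longer form CATGTGAA upstream. Of these, 7 were at least 2-fold higher and 6 at least 2-fold lower in LiCl only, their median log2 difference was -0.19, and 8 rose and 13 fell along the isobole in edgeR. The shares over all genes were 11.8% and 6.43% for the 2-fold differences and 15.6% in each direction for the slope.

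Genes with patterns most like INO1 and ITR1 over the 8 libraries were sought among 1399 genes with at least 10 CPM on average and a 2-fold span. For INO1 they were JHD2, BCP1, DOM34, RRP1 and TYE7, with Pearson's r of log2 CPM from 0.842 for TYE7 to 0.903 for JHD2. For ITR1 they were WSC4, YMR173W-A, DDR48, MEF1 and MET5, with r from 0.818 to 0.839. YMR173W-A lies over DDR48 and shares its reads. At no drug, point 1 and point 7, DDR48 had 226, 105 and 86.1 CPM and MET5 had 282, 72.5 and 53.7. With 8 points these likenesses are a description, and none of the candidates exceeded r = 0.9 with ITR1.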

How the data were processed

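The values used are raw read counts per CDS. Per the file headers, the authors made the deposited counts with featureCounts 1.6.2 from 50-base single-end reads aligned to build R64 with TopHat. Multi-mapping reads and reads over several features were counted at each, and no strand setting was given. RNA was ribodepleted. Intron counts were not used, since none of the 10 genes has an intron. Of the 6697 CDS, 6014 were found in the R64 annotation, from which the gene symbols were taken.

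TMM factors were computed over all 8 libraries. Slopes and curvature were tested over the 7 isobole libraries with edgeR 4.0.16 (glmQLFit, filterByExpr) in R 4.3.3, leaving 5 and 4 residual degrees of freedom. The p-values rest on scatter around the fitted line, with edgeR's dispersion estimates moderated over all genes, and not on replicates. Each SE printed with an edgeR estimate is the absolute estimate divided by the square root of its F statistic. In single-library comparisons a prior count of 0.5 was added, 2-fold was the limit, and intervals are exact binomial (95%) and cover counting error only. Alternatives were scaling by total counts or size factors (RLE), other filters and prior counts, DESeq2 1.42.0, and leaving out each isobole library. The tests were checked on simulated data with 6498 genes: 196 of 200 changed genes were recovered for slopes, with 14 false calls, and 198 of 200 for curvature, with 13.

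The 10 genes, the lists and the tests were chosen with earlier results of these data known. Named beyond the 10 genes are list genes past the threshold (up to 5 in each direction), INM2, PIS1, and the 5 genes most like INO1 and ITR1. Other tools were Python 3.11.15, numpy 2.4.6, pandas 2.3.3, scipy 1.17.1 and matplotlib 3.10.9.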

Additional observations from a re-analysis of the deposited data

How the results depend on the processing

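The slopes of the 10 genes kept their direction and their side of the threshold in 104 of 117 recomputations, and their curvature in 101 of 107. With an isobole library left out, the number of genes with a slope ranged from 836 (without LiCl only) to 2193, against 2027 with all, and the number with curvature from 0 (without cycloheximide only) to 237 (without point 2), against 80. DESeq2 called curvature in 286 genes. Counts of curved genes thus depend on single libraries and on the tool. Scaling by total counts gave 791 genes past 2-fold in cycloheximide only against no drug, where TMM gave 515 (741 higher and 50 lower, against 381 and 134), and moved the split in LiCl only against no drug from 764 higher and 418 lower to 1285 and 214. Of curved genes it gave 36 above and 70 below the chord, where TMM gave 57 and 23. Asking for a mean of 10 CPM gave 341 and, in LiCl only, 785 where 1182 passed, and left out INO1, INO2 and INO4.

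Signs turned where a library was left out. The slope of INO1 ranged from -0.0774 (without LiCl only) to 0.0403 (without cycloheximide only), with -0.0005 without point 3. That of INO4 ranged from -0.0091 (without point 2) to 0.0193, with -0.0043 without cycloheximide only, that of CHO2 from -0.0858 to 0.0315 (without LiCl only), and that of ITR1 from -0.0033 (without point 6) to 0.0867. Curvature ranged from -0.6589 to 0.2127 (without LiCl only) for INM1, from -0.5566 to 0.1749 (without point 3) for INO2, with 0.1322 without point 5, from -0.1056 (without LiCl only) to 0.4943 for OPI3, and from -0.1171 (without LiCl only) to 0.3392 for ITR1. None of these passed the threshold either way, and the cause was not tested. The positions of the libraries without drug and with LiCl only, and the counts for the 42 further genes, under other scalings were added after seeing the data. No paired analysis was possible because each condition had 1 library. Depth limits INO1, INO2 and INO4 most, with 24 to 288 counts a library.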
